A study of Mus musculus with 3 samples.

Results

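The genes described here are 5 secreted antagonists of Wnt signalling (Frzb, Sfrp1, Sfrp2, Dkk1 and Wif1) and 5 Frizzled receptors (Fzd1, Fzd2, Fzd4, Fzd7 and Fzd8). They were chosen by name, as the oligos with exactly 1 gene symbol in the platform annotation and that symbol among the 10. All 10 had a value on every array, out of 19635 genes tested, and 0 were missing. Sfrp1 was represented by 2 oligos, which were averaged, and each of the others by 1. The values come from 3 arrays of 2 colours, each of which carried RNA of CD1 mouse kidney at 13.5 days post coitum (dpc) in channel 1 and RNA of CD1 metanephric mesenchyme at 10.5 dpc in channel 2. Both tissues were normal, came from embryos of both sexes as a pool, and were dissected under the microscope, and their RNA was amplified before labelling. The measured quantity is the deposited log2 ratio of the channels. The sources used here do not give the numerator, so each gene is placed on the positive or negative side of the ratio, and no side is read as higher in kidney or in mesenchyme. A difference in a whole tissue cannot tell fewer cells of a type from less RNA per cell.

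Wnt proteins are secreted lipid-modified signals that bind Frizzled receptors, a family with several membrane passes and a cysteine-rich Wnt-binding domain outside the cell, together with the co-receptors Lrp5 and Lrp6. Binding stabilises beta-catenin, which enters the nucleus and acts with TCF/LEF factors, or engages routes that do not need beta-catenin, such as planar cell polarity. Frzb and the Sfrp proteins carry a cysteine-rich domain like that of the receptors and bind Wnts in the extracellular space, Wif1 binds Wnts through a different domain, and Dkk1 blocks the co-receptors. In the forming kidney, Wnt9b from the ureteric bud and Wnt4 in the condensing mesenchyme drive the change of mesenchyme into nephron epithelium.

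The 3 arrays did not resemble each other equally. Across oligos Pearson's r was 0.46 between arrays 1 and 2, 0.16 between 1 and 3, and 0.16 between 2 and 3; these are descriptions across oligos, which are not replicates. The median SD of a gene over the arrays was 0.32 on the log2 scale, and the number of arrays limits the precision. With limma's moderated test of each mean against 0 and Benjamini-Hochberg adjustment over all genes, 1 of 19635 genes (0.00509%) had an adjusted p under 0.05, and 0 of the 10 genes described here did. At an unadjusted limma p under 0.05 there were 3304 genes (16.8%), against 3 of the 10: Frzb, Dkk1 and Fzd2. That count was 1 of 10 without array 1 (8.55% of all genes), 3 without array 2 (10.6%) and 6 without array 3 (19.9%). Whether each array had its own pool of tissue is not given in the labels, so these p-values cover the spread between arrays, which may be technical.

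**Figure D1:**
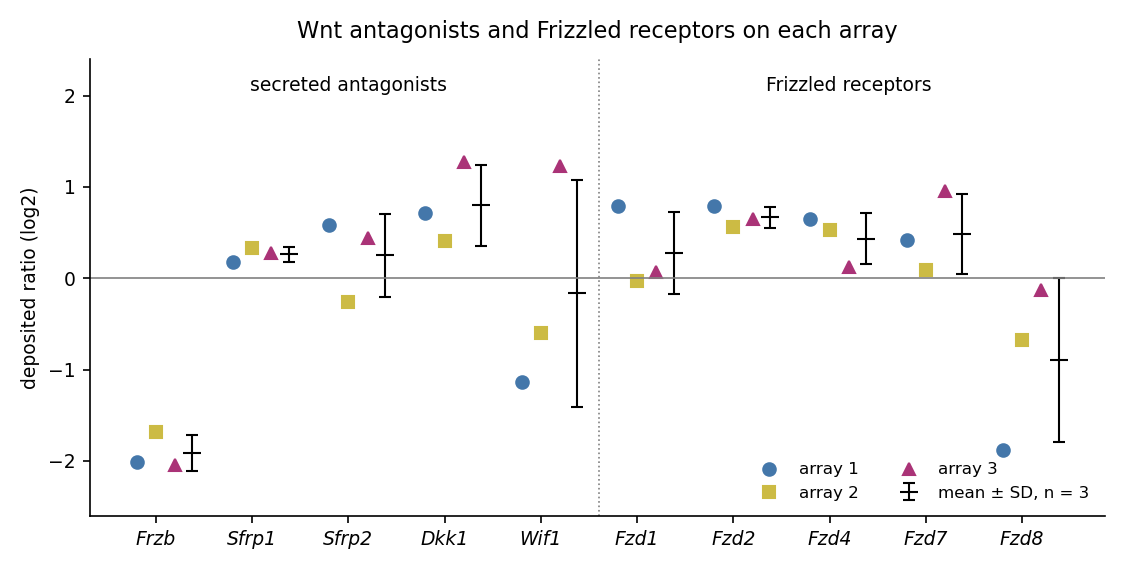
The deposited log2 ratio (vertical axis) of the 5 antagonists and the 5 receptors on arrays 1 to 3, with the mean and SD of each gene (n = 3 arrays) at its right. Frzb lay between -2.05 and -1.69 on all arrays, while the arrays of Wif1 lay on both sides of 0.

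Of the antagonists, Frzb was the farthest from 0. Frzb, also known as secreted frizzled-related protein 3, is a Wnt-binding protein first described in cartilage. Its log2 ratios were -2.01, -1.69 and -2.05 on arrays 1, 2 and 3. All 3 values lay on the negative side and close together, and on each array Frzb had the lowest ratio of the 10 genes. The mean was -1.91 ± 0.20 (SD, n = 3 arrays), a 3.77-fold difference between the tissues. Its limma p was 0.000168, with an adjusted p of 0.107. It ranked 27 by p among all genes, and 0.514% of genes had a mean larger in size.

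Dkk1, the inhibitor of the Lrp5 and Lrp6 co-receptors and a known transcriptional target of beta-catenin signalling, had log2 ratios of 0.72, 0.40 and 1.28 on arrays 1, 2 and 3. All were positive, and array 3 was the highest. The mean was the highest of the 10, 0.80 ± 0.44 (SD, n = 3), a 1.74-fold difference. Its limma p was 0.0199, with an adjusted p of 0.215. The labels mention a dye swap without naming its array. As deposited, Pearson's r across oligos was positive between every pair of arrays, and turning an array would make its r with the others negative. With the sign of array 3 turned all the same, the mean of Dkk1 was -0.053. It was 0.32 with array 1 turned and 0.53 with array 2 turned. The mean of Frzb was negative whichever array was turned (-0.79 to -0.55). Both outcomes follow by arithmetic from the 3 array values and do not measure how stable a side is. As deposited, Frzb and Dkk1 stood on opposite sides of the ratio on each of the 3 arrays.

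The remaining antagonists were nearer 0. Sfrp1, a Wnt-binding secreted frizzled-related protein, had averaged log2 ratios of 0.17, 0.33 and 0.28 on arrays 1, 2 and 3, with a mean of 0.26 ± 0.081 (SD, n = 3; limma adjusted p = 0.443), the smallest SD of the 10 genes. Its oligos differed from each other. The oligo annotated with a RefSeq transcript had log2 ratios of 0.45, 0.62 and 0.27 and a mean of 0.45 ± 0.18, and the one annotated with a cDNA clone had -0.10, 0.047 and 0.28 and a mean of 0.074 ± 0.19, so the small SD belongs to their average and not to either alone. Tested singly, these oligos had a limma p of 0.0432 and 0.670 (adjusted p = 0.286 and 0.850).

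Sfrp2, a related Wnt-binding protein, stood at 0.59, -0.26 and 0.44 on arrays 1, 2 and 3. Array 2 lay on the other side of 0 from arrays 1 and 3, and the mean was 0.25 ± 0.45 (SD, n = 3; limma adjusted p = 0.625). Without array 1, 2 or 3 it was 0.087, 0.51 or 0.16. Wif1, Wnt inhibitory factor, had the widest spread of the 10, with log2 ratios of -1.13, -0.60 and 1.23. Arrays 1 and 2 were negative and array 3 was positive, which gave a mean of -0.16 ± 1.24 (limma adjusted p = 0.896). The SD of Wif1 was exceeded by 4.84% of all genes. Its mean was 0.32 without array 1, 0.051 without array 2 and -0.86 without array 3, so no side can be given for it.

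Among the receptors, Fzd2 had the closest arrays. Its log2 ratios were 0.79, 0.56 and 0.65 on arrays 1, 2 and 3, all positive. The mean was 0.67 ± 0.11 (SD, n = 3), a 1.59-fold difference. The limma p was 0.00875, with an adjusted p of 0.167, and 10.9% of genes had a smaller SD. Fzd4, which also serves as the receptor of the non-Wnt ligand norrin in blood vessel growth, had 0.65, 0.53 and 0.12. Its values were positive and lowest on array 3, with a mean of 0.43 ± 0.28, a 1.35-fold difference (limma adjusted p = 0.332).

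Fzd7, a receptor linked to beta-catenin signalling in progenitor cells, had log2 ratios of 0.42, 0.091 and 0.96 on arrays 1, 2 and 3. All were positive, array 2 was close to 0 and array 3 was the highest, and the mean was 0.49 ± 0.44 (SD, n = 3), a 1.40-fold difference (limma adjusted p = 0.366). Without array 3 the mean was 0.25. Fzd1 had 0.79, -0.031 and 0.064, and its mean of 0.28 ± 0.45 (limma adjusted p = 0.594) rested on array 1, without which it was 0.016; without array 2 it was 0.43.

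Fzd8 was the only receptor of the 5 with a negative mean. Its log2 ratios were -1.88, -0.68 and -0.13 on arrays 1, 2 and 3. All were negative but spread widely, with array 1 far below array 3, and the mean was -0.90 ± 0.89 (SD, n = 3), a 1.86-fold difference (limma adjusted p = 0.337). The mean was -0.40 without array 1 and -1.28 without array 3. The SD of Fzd8 was exceeded by 10.5% of all genes. On each array Fzd8 had the lowest ratio after Frzb.

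**Figure D2:**
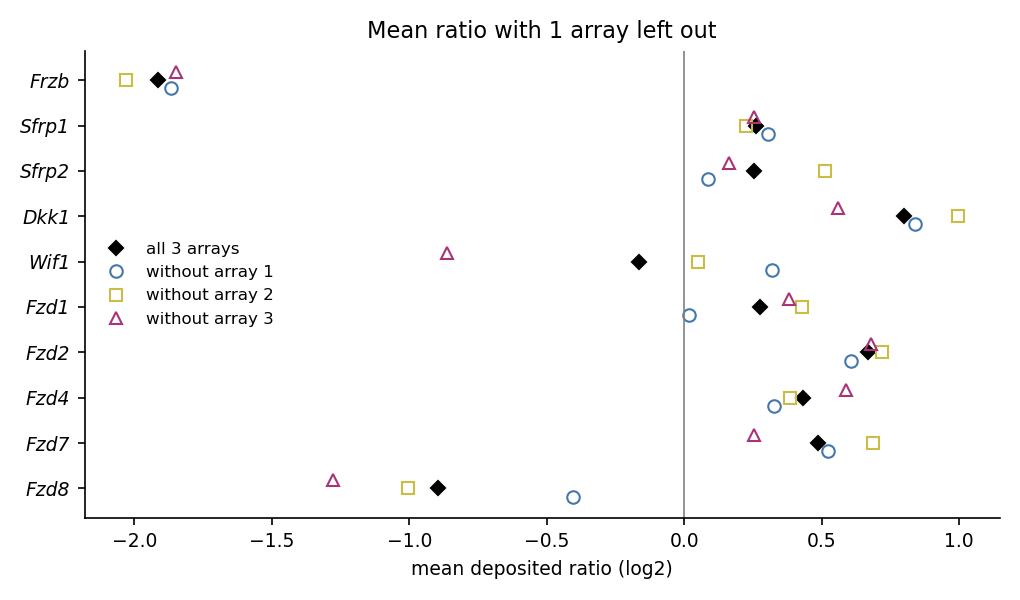
The mean log2 ratio (horizontal axis) of each gene over all 3 arrays (filled diamond) and with each array left out in turn (open symbols). Wif1 crossed 0, from -0.86 to 0.32, while Frzb stayed between -2.03 and -1.85 and Fzd2 between 0.61 and 0.72.

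In order of mean ratio from the negative to the positive side the genes were Frzb, Fzd8, Wif1, Sfrp2, Sfrp1, Fzd1, Fzd4, Fzd7, Fzd2 and Dkk1. The gap from Frzb to Fzd8 was 1.02 on the log2 scale, and the other gaps were at most 0.73. Every neighbouring pair in this order had array values whose ranges overlapped, Frzb and Fzd8 included, so pooled over arrays no neighbours were separated by their spread. Within each array, however, Frzb lay below Fzd8 and Fzd8 below Wif1. Of the 10 genes, 5 were positive on all 3 arrays (Sfrp1, Dkk1, Fzd2, Fzd4 and Fzd7), against 21.5% of all genes tested. Frzb and Fzd8, 2 of 10, were negative on all 3, against 19.9% of all genes. Together 7 of 10 had the same sign on all arrays, against 41.3% of all genes, and Sfrp2, Wif1 and Fzd1 had arrays of both signs. A positive mean was found for 7 of 10, against 50.3% of all genes. The median of the 10 means was 0.27, against 0.0020 over all genes. It was 0.25 for the antagonists and 0.43 for the receptors, and both groups held genes on either side of 0. By array, the median of the 10 was 0.50, 0.030 and 0.36 on arrays 1, 2 and 3. Over all genes it was 0.0043, 0.030 and -0.0029. On array 2 the 10 genes thus had about the same median as all genes. Of the 10, 7 were positive on array 1, 5 on array 2 and 8 on array 3.

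**Figure D3:**
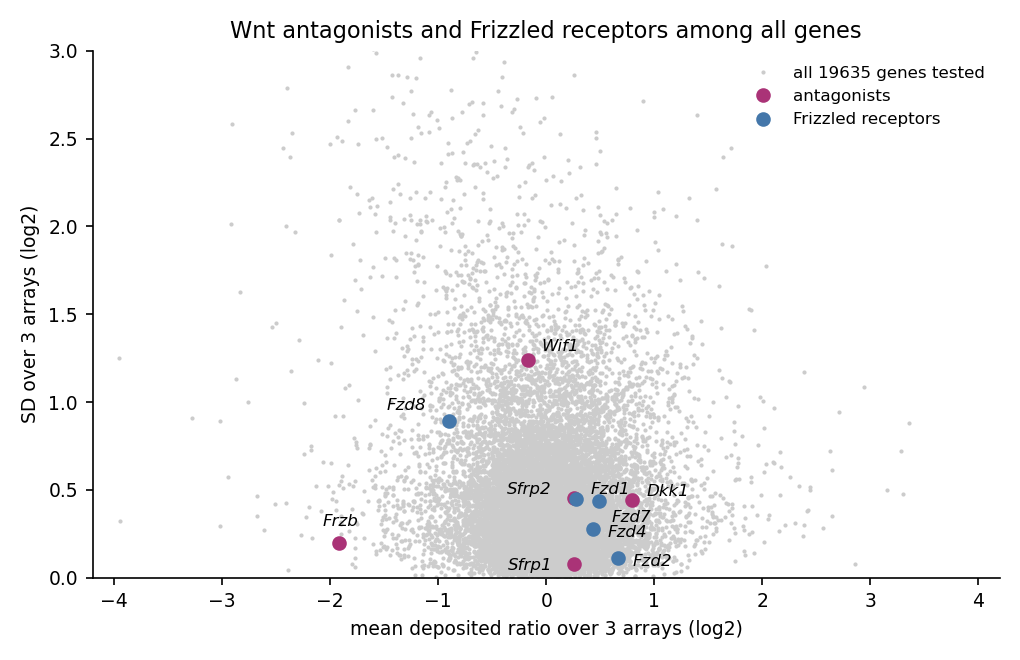
Mean log2 ratio over the 3 arrays (horizontal axis) against the SD over the same arrays (vertical axis) for all genes tested (grey, 33 genes lie outside the axes), with the antagonists and receptors marked. Frzb combined a mean of -1.91 with an SD of 0.20, whereas Wif1 and Fzd8 had SDs of 1.24 and 0.89.

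The genes nearest to the lowest and the highest of the 10 in their array values were searched among the other 14745 genes with a symbol, by the Euclidean distance over the 3 log2 ratios. For Frzb they were 4930461C15Rik (distance 0.21), 4930567H12Rik (0.27) and Gpat4 (0.33), with mean log2 ratios of -1.90, -1.80 and -1.80. For Dkk1 they were Slf1 (distance 0.053), Zfp101 (0.076) and Tlcd3b (0.084), with means of 0.78, 0.84 and 0.84. Likeness over 3 ratios of 1 comparison describes only these arrays.

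Since TCF/LEF factors are the nuclear end of the pathway these proteins act on, the 250 bases before the annotated start were searched for the TCF/LEF core motif, spelled CTTTGAA or CTTTGAT, or else CTTTGTA or CTTTGTT, on both strands. RefSeq promoter sequences of build GRCm38.p6 were matched for 7 of the 10 genes (Frzb, Sfrp2, Dkk1, Wif1, Fzd1, Fzd4 and Fzd7); the others are Sfrp1, Fzd2 and Fzd8. A match was found for 2 of the 7, Dkk1 and Fzd7, while 14.8% of 32851 promoter windows of that length held at least 1 and 1.43% held 2 or more. Dkk1 had 2 matches on its own strand, which begin 117 and 98 bases before the start, and Fzd7 had 1 on the opposite strand, which begins 130 bases before it. The windows of Dkk1 and Fzd7 are shown for these matches and that of Frzb because its mean was the farthest from 0 of the 10. They are read 5′ to 3′ in the direction of the gene, with the matches in capitals, at chr19:30549497-30549746 (minus strand) for Dkk1, chr1:59481897-59482146 (plus strand) for Fzd7 and chr2:80447397-80447646 (minus strand) for Frzb. A match is a description of the letters, and the arrays do not measure binding.
Dkk1: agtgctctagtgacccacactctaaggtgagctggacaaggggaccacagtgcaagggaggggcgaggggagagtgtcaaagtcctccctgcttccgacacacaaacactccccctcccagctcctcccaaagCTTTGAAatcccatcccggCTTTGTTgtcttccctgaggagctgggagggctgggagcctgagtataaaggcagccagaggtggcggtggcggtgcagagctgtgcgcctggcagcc
Fzd7: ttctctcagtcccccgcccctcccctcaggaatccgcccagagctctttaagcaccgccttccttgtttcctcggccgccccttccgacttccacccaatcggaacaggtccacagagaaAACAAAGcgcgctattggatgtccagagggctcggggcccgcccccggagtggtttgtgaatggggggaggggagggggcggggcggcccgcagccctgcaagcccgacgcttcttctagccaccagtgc
Frzb: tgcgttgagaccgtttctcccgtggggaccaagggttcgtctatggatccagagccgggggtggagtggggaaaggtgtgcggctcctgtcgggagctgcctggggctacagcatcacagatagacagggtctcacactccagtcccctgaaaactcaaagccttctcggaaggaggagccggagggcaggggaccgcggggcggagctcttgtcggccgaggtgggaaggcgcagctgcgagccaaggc
Both genes with a match, Dkk1 and Fzd7, had positive ratios on all 3 arrays, and so did Fzd4, whose window held none. Sfrp1 and Fzd2 were positive on all 3 arrays too, but no sequence was there to search. Of all genes, 21.5% were positive on all 3 arrays, and a link between match and side was not tested.

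The other Wnt pathway genes lay about evenly on both sides of 0. Of 106 listed, 90 were measured, 44 with a positive and 46 with a negative mean, and their median was -0.037. By limma 0 of them had an adjusted p under 0.05, and 20 of 90 had an unadjusted p under 0.05, 10 on each side, where 8.99% of all genes passed with a positive mean and 7.83% with a negative one.

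Among 13 other antagonists and modulators outside or at the surface of the cell, 5 had an unadjusted limma p under 0.05, against 16.8% of all genes. Sfrp4, a further secreted frizzled-related protein, averaged 1.16 ± 1.00 (log2 ratio, SD, n = 3), with 0.41, 0.79 and 2.30 on arrays 1, 2 and 3, the last far above the others. Apcdd1, a membrane inhibitor of Wnt signalling, stood at 0.85 ± 0.20, and Sostdc1, an inhibitor of both Wnt and BMP signals, at 0.69 ± 0.12. On the negative side were Kremen2, a Dkk1 receptor, at -0.95 ± 0.42, and Igfbp4, an IGF-binding protein that also binds Frizzled and Lrp6, at -0.61 ± 0.21. Of the Dkk family, Dkk2 had a mean of -0.12 ± 0.78 and Dkk3 of 0.22 ± 0.099, against the 0.80 of Dkk1. Sfrp5 stood at 0.16 ± 0.99.

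Of 11 other receptors and co-receptors, 0 had an unadjusted limma p under 0.05, against 16.8% of all genes. Their mean log2 ratios ran from -0.88 ± 0.76 for Ror2, a receptor tyrosine kinase for Wnt5a, to 0.27 ± 0.19 for Smo, a Frizzled relative of the hedgehog pathway. The other measured Frizzleds were Fzd3 at -0.36 ± 0.39, Fzd5 at 0.23 ± 0.75, Fzd6 at -0.25 ± 0.28 and Fzd9 at 0.065 ± 0.33. The co-receptor Lrp5 stood at -0.12 ± 0.15.

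Of 17 Wnt ligands, 12 had a negative mean, against 9768 of all 19635 genes, and the median of the ligands was -0.21. An unadjusted limma p under 0.05 was found for 5 of the 17, against 16.8% of all genes. Wnt4 stood at 1.84 ± 0.13 and Wnt8a at 0.85 ± 0.098, while Wnt2, Wnt3 and Wnt6 stood at -1.16 ± 0.34, -0.97 ± 0.78 and -0.95 ± 0.19 (SD, n = 3), and these were the 5 with an unadjusted limma p under 0.05. Wnt9b had -1.42 on array 1 against -0.099 and -0.19 on arrays 2 and 3. Wnt4 on the positive side and Frzb on the negative side were the farthest from 0 of the 100 Wnt pathway genes measured, the 10 included.

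Among 11 agonists and genes of Wnt secretion, 3 had an unadjusted limma p under 0.05: Rspo1, an R-spondin that strengthens Wnt signals, at 0.82 ± 0.26, the Frizzled4 ligand norrin, Ndp, at -0.57 ± 0.26, and the glypican Gpc3 at -0.82 ± 0.014 (mean log2 ratio ± SD, n = 3). Norrin and its receptor Fzd4 stood on opposite sides of the ratio, at -0.82, -0.30 and -0.58 for Ndp against 0.65, 0.53 and 0.12 for Fzd4. Inside the cell, 2 of 16 transduction genes did, Csnk1a1, a kinase of the beta-catenin destruction complex, at 0.41 ± 0.11, and Ctnnb1, beta-catenin itself, at -0.75 ± 0.52. Of 14 target genes, 3 did: Sp5 at 0.44 ± 0.073, Fgf8 at -0.58 ± 0.21 and Nkd2 at -0.82 ± 0.19. Axin2, a widely used target, stood at 0.056 ± 0.18. In the planar polarity list of 9, Celsr1 at 0.997 ± 0.278 and Prickle2 at 0.77 ± 0.092 did. Beside these counts, 16.8% of all genes had an unadjusted limma p under 0.05, and no list was tested.

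**Figure D4:**
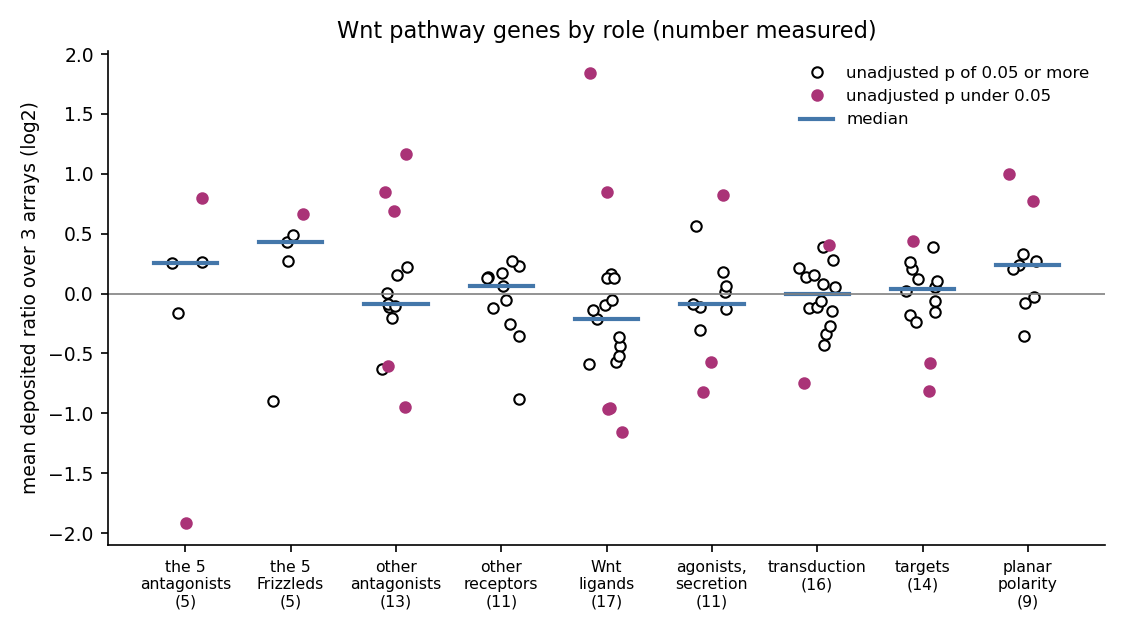
Mean log2 ratio over the 3 arrays (vertical axis) of the 5 antagonists, the 5 Frizzled receptors and the other Wnt pathway genes by role, with 1 point for each gene, the median of each list as a line and genes of an unadjusted limma p under 0.05 filled. Frzb at -1.91 and Wnt4 at 1.84 were the outermost points, and the list medians lay between -0.21 and 0.43.

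Markers of the 2 tissues and of their neighbours were read on the same arrays. Of 9 nephron progenitor markers 7 had a positive mean (median 0.29), as did 4 of 6 ureteric bud markers (0.12), 5 of 5 early nephron markers (0.31) and 5 of 5 stroma markers (1.19). The share over all genes was 50.3%. Positive on all 3 arrays were 6 of the nephron progenitor, 2 of the ureteric bud, 3 of the early nephron and 5 of the stroma markers. That was so for 21.5% of all genes. The mean was negative for 11 of 11 cartilage, limb and somite markers (median -0.91), 5 of 5 muscle markers (-0.94) and 3 of 4 neural markers (-0.61). So it was for 5 of 5 gut and liver markers (-1.14) and 5 of 5 red cell markers (-2.61). Negative on all 3 arrays were 6 of the cartilage, limb and somite, 5 of the muscle and 3 of the neural markers. The same held for 4 of the gut and liver and 5 of the red cell markers, against 19.9% of all genes. A ratio does not show whether a marker is absent from a tissue.

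Frzb lay on the side where all 11 cartilage, limb and somite markers had their mean, 6 of them negative on all 3 arrays. The means of those 11 ran from -1.77 to -0.011, and their array medians were -0.95, -0.45 and -0.84 for arrays 1 to 3, while Frzb had -2.01, -1.69 and -2.05. Among them the cartilage collagen Col2a1 stood at -0.91 ± 0.055 and the limb mesenchyme factors Prrx1 and Twist1 at -1.28 ± 0.17 and -1.57 ± 0.13 (mean log2 ratio ± SD, n = 3), whereas the cartilage matrix genes Acan and Matn1 stood at -0.091 ± 0.231 and -0.18 ± 0.20. The muscle, gut and liver and red cell markers lay on that side too, and the part of these markers in the ratio of Frzb was not tested. Fzd2 and Dkk1 lay on the side of the means of most nephron progenitor, ureteric bud and early nephron markers and of all 5 stroma markers. Of these lists, 2 of 6 ureteric bud and 3 of 5 early nephron markers were positive on all 3 arrays. The stroma means ran from 0.72 to 2.15, with medians of 1.03, 0.92 and 1.52 on arrays 1, 2 and 3, and the part of these markers in the ratios of Fzd2 and Dkk1 was not tested either.

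**Figure D5:**
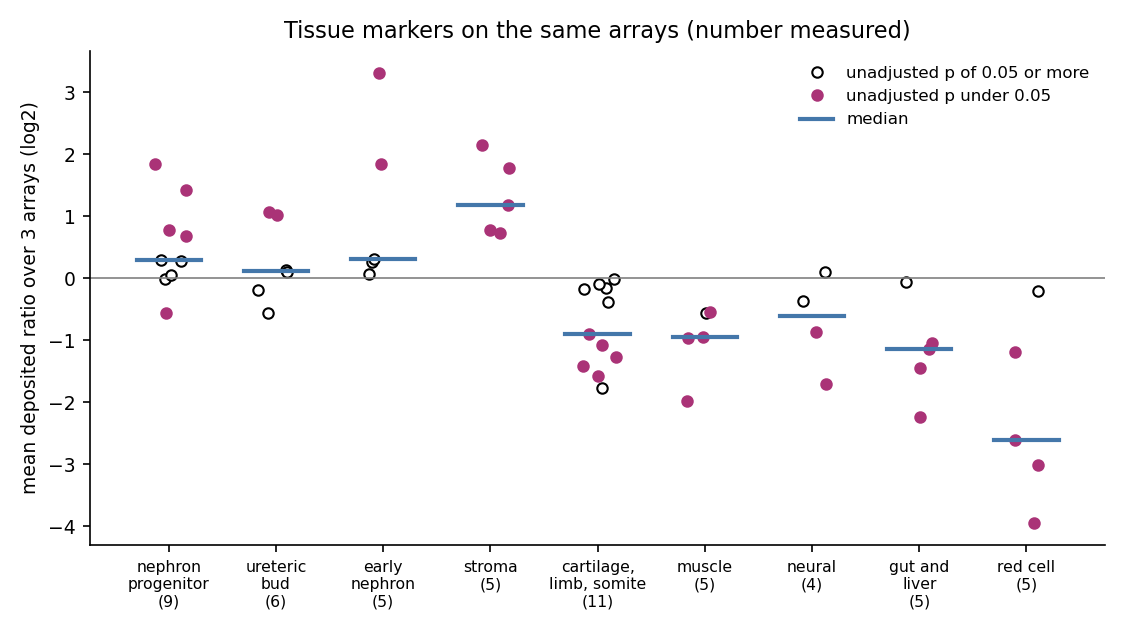
Mean log2 ratio over the 3 arrays (vertical axis) of tissue markers, 1 point for each gene, with the list median as a line and genes of an unadjusted limma p under 0.05 filled. The 5 stroma markers lay above 0 and the 11 cartilage, limb and somite, 5 muscle and 5 red cell markers below it.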

How the data were processed

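RNA of 13.5 dpc kidney and 10.5 dpc metanephric mesenchyme was compared directly on 3 arrays of the Compugen mouse oligo library, which form 1 group. Per the labels, images were read with ImaGene 5.5, and the authors applied print-tip loess on each array and a between-array normalization in R, whose order the labels do not state. The labels also describe a lowess adjustment of the control value that used 20.0% of the data, with values under 10 set to 10. The deposited values are log2 ratios; the base was taken from the values, since 2 to the power of each value has at most 3 decimals, with a tolerance of 0.01 on the last, for 99.7% to 99.8% of the values of an array. The labels name a dye swap without its array, and no sign was turned. Loess centres the ratios on 0, which would hide a change shared by most genes. Spot intensities were not used here, so dim or saturated spots could not be told apart.

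The 881 control spots among 22702 were dropped. Of 21821 oligos, 16658 had 1 symbol, 137 several and 5026 none listed; 21094 had a value on all 3 arrays, which was required. Oligos of a symbol were averaged, and those with several or no symbols kept their identifiers. Means were compared with 0 by the moderated test of limma 3.58.1 under R 4.3.3 (intercept model, eBayes, two-sided, Benjamini-Hochberg over 19635 genes, threshold 0.05). The fit was also run on simulated independent values, with added means larger in size than those of the 10 genes. That run does not show how the test performs at the sizes reported here. An exact sign-flip test on 3 arrays cannot go below p = 0.25. The 10 genes and the pathway and marker lists were chosen with earlier results of these data known, so no test was made over a list. From each pathway list the genes with an unadjusted p under 0.05 are named, or else the highest and lowest; the further Dkk, Sfrp and Frizzled genes, Lrp5, Wnt9b and Axin2 were named after their values were seen, as were the single markers. Alternatives were array weights, median centring, scaling, genes on 2 arrays, single oligos, each array left out and each array's sign turned.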

Additional observations from a re-analysis of the deposited data

How the results depend on the processing

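With array weights, median centring, scaling to 1 spread, genes on at least 2 arrays, single oligos or 1 array left out, 0 of the 10 genes passed an adjusted p of 0.05 in limma, and 9 of them kept the side of their mean; the lowest adjusted p of Frzb in those settings was 0.0714 (array weights) and the highest 0.478 (without array 1). Wif1 changed sides without array 1 (0.32) and without array 2 (0.051), and stood at -0.86 without array 3. The count of genes past the adjusted threshold over all genes, 1, was 0 after scaling (3359 at an unadjusted p under 0.05), 0 without any 1 of the arrays (1678 to 3913) and 0 with the sign of any 1 array turned (265, 284 and 1221 for arrays 1, 2 and 3). Since the array of the dye swap is not named, each sign was also turned. Pearson's r was positive between all arrays as deposited (0.46, 0.16 and 0.16), and a turned array has a negative r with the others. With array 1 turned, the means were -0.14 for Sfrp2, 0.59 for Wif1, -0.25 for Fzd1 and 0.36 for Fzd8; with array 2 turned, 0.23 for Wif1; with array 3 turned, -0.038 for Sfrp2, -0.053 for Dkk1 and -0.15 for Fzd7. Frzb, Sfrp1, Fzd2 and Fzd4 kept their side in each of these, and the cause of the changes is the turned sign itself. Which genes keep their side follows by arithmetic from the array values and does not measure how stable a side is. With array weights (1.23, 1.65 and 0.49 for arrays 1, 2 and 3) 5 of the 10 genes had an unadjusted limma p under 0.05, as did 21.5% of all genes. No paired analysis was possible because there is 1 group and each array already holds both tissues.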

Other observations

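Wif1 was 1 of 6 among the 100 measured Wnt pathway genes with an SD over the arrays above 1 on the log2 scale, a limit chosen after the values were seen; 8.52% of all genes exceeded it. The others were Sfrp4, Cer1, Lgr5, Celsr3 and Daam1. In all 6, array 3 was the array farthest from the mean of the other two. Cer1, a secreted antagonist of Wnt, BMP and Nodal signals, had log2 ratios of -1.99, -1.61 and 1.70 on arrays 1, 2 and 3, and Lgr5, an R-spondin receptor, had -0.59, -0.032 and 2.33. Daam1, a formin of the planar polarity route, had -0.60, -0.49 and 2.08. Over all 1673 genes past the same limit, array 3 was the farthest for 54.3%, array 1 for 26.9% and array 2 for 18.8%. These are values without a test.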
